A study of Mus musculus with 16 samples.

Results

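The collagen gene family was described in whole mouse lung after bleomycin or phosphate-buffered saline (PBS), under a target site blocker for CAV1 or under a control blocker. Its members were the genes whose symbol, updated through RefSeq accessions, has the form of a collagen chain (Col, a number, a, a number). They numbered 43 of the 20863 named genes on the array, and 74 spots carried them. The spot with the highest mean over all arrays stood for each gene, and the other spots of 16 members served as a check. Fibrillar chains numbered 11, basement membrane chains 6, beaded filament chains 5 and fibril-associated chains 9. The other 12 were short-chain network chains (3), the anchoring fibril chain Col7a1, multiplexins (2), transmembrane collagens (4) and 2 further chains. Col6a3 and Col21a1 were not among the spots with a gene name used here.

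Collagen chains fold into helical trimers that are secreted, trimmed by proteases and, for the fibrillar types, cross-linked into the fibres that give the lung its tensile strength. Types I, III and V form mixed fibrils in the lung interstitium, type IV forms the sheet under epithelium and endothelium, and type VI forms beaded microfilaments around cells. Fibril-associated collagens sit on fibril surfaces. Bleomycin injures the lung epithelium and is a common way to produce lung fibrosis, in which fibroblasts deposit fibrillar collagen.

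Total RNA was extracted with TRIzol from whole lungs of C57BL/6 mice aged 9 to 12 weeks and labelled with Cy3, 1 Agilent array per sample. The CAV1 blocker preceded bleomycin in 6 samples and the control blocker did so in 6 others, and PBS followed the CAV1 blocker in 2 and the control blocker in 2. Per the labels, mice received the blocker into the trachea 4 and 2 days ahead of bleomycin (1 unit/kg) or PBS, and again 4 days later. The CAV1 blocker was given at 5 mg/kg, the dose of the control blocker and the day of lung collection are not given in the sources used here, and every animal carried a blocker. Such a blocker is an antisense oligonucleotide that shields a microRNA site, here in the transcript of Cav1, which encodes the membrane protein caveolin. The labels do not say that each sample came from its own animal, and the p-values then reflect the spread between samples, which may be technical. Values are the deposited log2 intensities, and differences between groups were taken within a spot. Levels of different spots were compared to choose a gene's spot and the highest member of each type. They were also set against array percentiles, to filter dim signals and to place genes. In whole lung, fewer cells of a type and less RNA per cell cannot be told apart.

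The arrays differed in tissue content before any collagen was considered. The mean of 12 skeletal muscle markers ranged over 7.38–11.08 in bleomycin CAV1 blocker arrays, 7.25–10.34 in bleomycin control blocker arrays, 7.10–7.35 in PBS CAV1 blocker arrays and 9.97–12.35 in PBS control blocker arrays. Squamous epithelium markers (14) gave 7.37–11.17, 7.31–10.83, 7.15–7.25 and 10.40–10.98 in the same order of groups. Array 6 of bleomycin with the CAV1 blocker and array 2 of PBS with the control blocker had the highest means of 3 endothelial markers, 13.38 and 13.57. They also had the highest means of 7 lung epithelium markers, 15.94 and 16.04, against at most 15.74 in the other arrays. Cardiac muscle markers (8) ranged over 11.63–12.60, 11.76–13.21, 12.12–12.62 and 12.57–12.95 and adipocyte markers (6) over 9.05–11.29, 9.10–10.27, 10.00–10.74 and 10.93–11.43, in that order again. All 7 lung epithelium markers lay above the array median in all 16 arrays. The mean of 9 fibroblast and mesothelium markers was 11.35–11.53 in bleomycin CAV1 blocker arrays, 11.25–11.41 in bleomycin control blocker arrays, 11.41–11.59 in PBS CAV1 blocker arrays and 11.37–11.41 in PBS control blocker arrays. Cav1 itself, whose transcript the blocker is directed at, averaged 10.94 ± 0.22 (SD, n = 6) with the CAV1 blocker and 10.70 ± 0.18 (n = 6) with the control blocker after bleomycin, a log2 difference of 0.24 (SE 0.126) that did not pass in the limma fit (adjusted p = 0.642).

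Of the 43 members, 26 lay above the array median in all 16 arrays, 10 in some arrays and 7 in none. The 26 included 7 of 11 fibrillar chains, all 6 basement membrane chains, 2 of 5 beaded filament chains (Col6a1 and Col6a2) and 4 of 9 fibril-associated chains. All 43 passed the filter on dim signals and were tested with the rest of the 20304 genes. Col2a1, Col11a1, Col11a2, Col9a1 and Col10a1, chains best known from cartilage, were on average near or below the array median. Col11a2 reached 7.25 in array 2 of PBS with the control blocker. Of the other type IX chains, Col9a2 lay above the array median in 11 arrays and Col9a3 in 0. Of 11 cartilage markers, Matn4, Comp and Chad lay above it in all 16 arrays and the other 8 in 0 to 4 arrays.

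The promoters of fibrillar members that rose after bleomycin are shown, where matched, because these genes moved together in the comparison with PBS. No window was matched for Col1a1 and Col5a2, which also rose. RefSeq promoter windows (build GRCm38.p6) were matched for 34 of the 43 members, 37 windows in all. The 250 bases upstream of the annotated start are printed on the gene's own strand for Col1a2 (chr6:4505368-4505617, plus strand), Col3a1 (chr1:45311288-45311537, plus strand), Col5a1 (chr2:27886175-27886424, plus strand), Col5a3 (chr9:20815068-20815317, minus strand) and Col24a1 (chr3:145292222-145292471, plus strand). Capitals mark CCAAT (or ATTGG) and GGGCGG (or CCGCCC) matches.
Col1a2: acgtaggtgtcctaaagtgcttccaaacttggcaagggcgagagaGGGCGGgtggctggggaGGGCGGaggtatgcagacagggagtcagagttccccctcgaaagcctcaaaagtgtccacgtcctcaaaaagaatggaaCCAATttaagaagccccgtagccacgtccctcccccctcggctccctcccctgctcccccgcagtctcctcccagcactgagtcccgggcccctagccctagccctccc
Col3a1: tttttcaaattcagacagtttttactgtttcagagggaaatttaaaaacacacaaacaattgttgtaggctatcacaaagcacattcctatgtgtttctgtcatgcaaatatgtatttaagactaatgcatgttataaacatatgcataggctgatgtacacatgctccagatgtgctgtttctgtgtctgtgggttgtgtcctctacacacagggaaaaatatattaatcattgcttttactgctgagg
Col5a1: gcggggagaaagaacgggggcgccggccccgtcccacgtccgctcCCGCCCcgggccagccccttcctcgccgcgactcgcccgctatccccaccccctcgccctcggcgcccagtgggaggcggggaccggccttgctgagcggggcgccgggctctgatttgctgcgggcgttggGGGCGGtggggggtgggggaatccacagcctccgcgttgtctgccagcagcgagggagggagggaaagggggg
Col5a3: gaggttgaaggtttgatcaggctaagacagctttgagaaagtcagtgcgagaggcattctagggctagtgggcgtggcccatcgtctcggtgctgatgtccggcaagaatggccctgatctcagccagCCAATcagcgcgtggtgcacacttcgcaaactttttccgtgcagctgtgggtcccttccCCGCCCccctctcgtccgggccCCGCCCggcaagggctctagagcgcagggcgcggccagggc
Col24a1: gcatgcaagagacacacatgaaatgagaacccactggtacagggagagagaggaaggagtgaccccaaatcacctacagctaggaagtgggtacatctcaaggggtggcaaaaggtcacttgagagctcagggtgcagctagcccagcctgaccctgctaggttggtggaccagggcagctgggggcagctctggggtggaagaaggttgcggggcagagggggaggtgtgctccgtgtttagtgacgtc

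In these 5 stretches the GC content was 62.0% for Col1a2, 35.2% for Col3a1, 76.4% for Col5a1, 62.8% for Col5a3 and 58.0% for Col24a1. CCAAT was found in the stretches of Col1a2 and Col5a3, and GGGCGG in those of Col1a2, Col5a1 and Col5a3, 2 matches each. Col3a1 held a TATAAA match and neither of the others, and Col24a1 held none. Over the 250 bases upstream and both strands, GGGCGG occurred in 22 of 37 collagen stretches (59.5%), against 32.7% of all 32851. CCAAT occurred in 13 (35.1%, against 33.8%), TATAAA in 5 (13.5%, against 12.4%) and TGANTCA in 1 (2.70%, against 6.75%). No printed CCAAT and GGGCGG matches overlapped. A match describes these letters only, and these 5 genes share neither a single motif nor a base composition.

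The comparison of bleomycin with PBS asks which collagen chains change in the injured lung. Averaged over both blockers, 10 of 43 collagen genes rose and none fell. That is 23.3% of the family called higher, where 4.25% of all genes tested were called higher, 1.68% lower and 5.93% in either direction. Fibrillar chains made up 7 of the 10, which were Col1a1, Col1a2, Col3a1, Col5a1, Col5a2, Col5a3 and Col24a1. The others were the anchoring fibril chain Col7a1, the fibril-associated Col16a1 and Col28a1. The median log2 difference was 0.66 over 11 fibrillar chains and 0.18 over the family, against 0.01 over all genes. The difference was positive for 35 of 43 members, and 17 were higher at an unadjusted p under 0.05 (39.5%, against 10.3% of all genes) while 1 was lower (7.08% of all genes). Skeletal muscle, squamous, endothelial and lung epithelium marker levels also differed between these arrays, as given above. With the skeletal muscle list as a covariate 11 members were called in this comparison, among them the 10 named here. Array weights gave 5, and the replicate number as a block gave 0. Leaving out array 1 of PBS with the CAV1 blocker left 3 calls, and leaving out array 1 of PBS with the control blocker gave 16.

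Col1a1 and Col1a2 encode the chains of type I collagen, the main fibril former of the lung. Col1a1 had a lowest value of 12.98, a median of 13.75 and a highest of 13.97 in bleomycin CAV1 blocker arrays. Bleomycin control blocker arrays gave 14.01, 14.09 and 14.31, PBS CAV1 blocker arrays 12.35 and 13.28, and PBS control blocker arrays 13.14 and 12.67. All bleomycin control blocker arrays stood above every PBS array, and 1 bleomycin CAV1 blocker array fell within the PBS range. The log2 difference between bleomycin and PBS was 1.03 (SE 0.170, 95% interval 0.66 to 1.39), 2.04-fold, with an adjusted p of 0.00336 in limma. Col1a2 had 15.50, 15.96 and 16.01 (lowest, median, highest) in bleomycin CAV1 blocker arrays and 16.03, 16.21 and 16.40 in bleomycin control blocker arrays. It had 15.04 and 15.70 in PBS CAV1 blocker arrays and 15.51 and 15.17 in PBS control blocker arrays. Again all bleomycin control blocker arrays stood above every PBS array, and the log2 difference was 0.70 (SE 0.117, interval 0.45 to 0.95, adjusted p = 0.00341), 1.63-fold. Array 1 of bleomycin with the CAV1 blocker was the lowest bleomycin array for both chains.

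Col3a1 encodes the type III chain of the thinner reticular fibres. Its lowest, median and highest values were 13.76, 14.70 and 14.76 in bleomycin CAV1 blocker arrays and 14.69, 14.90 and 15.00 in bleomycin control blocker arrays. PBS CAV1 blocker arrays had 13.16 and 14.21, and PBS control blocker arrays had 13.89 and 13.85. Apart from the same low array, every bleomycin array exceeded every PBS array. The log2 difference was 0.92 (SE 0.180, interval 0.54 to 1.31), 1.90-fold, with an adjusted p of 0.00738. Under the control blocker alone it was 1.00 with an adjusted p of 0.0514, which narrowly missed the threshold.

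**Figure D1:**
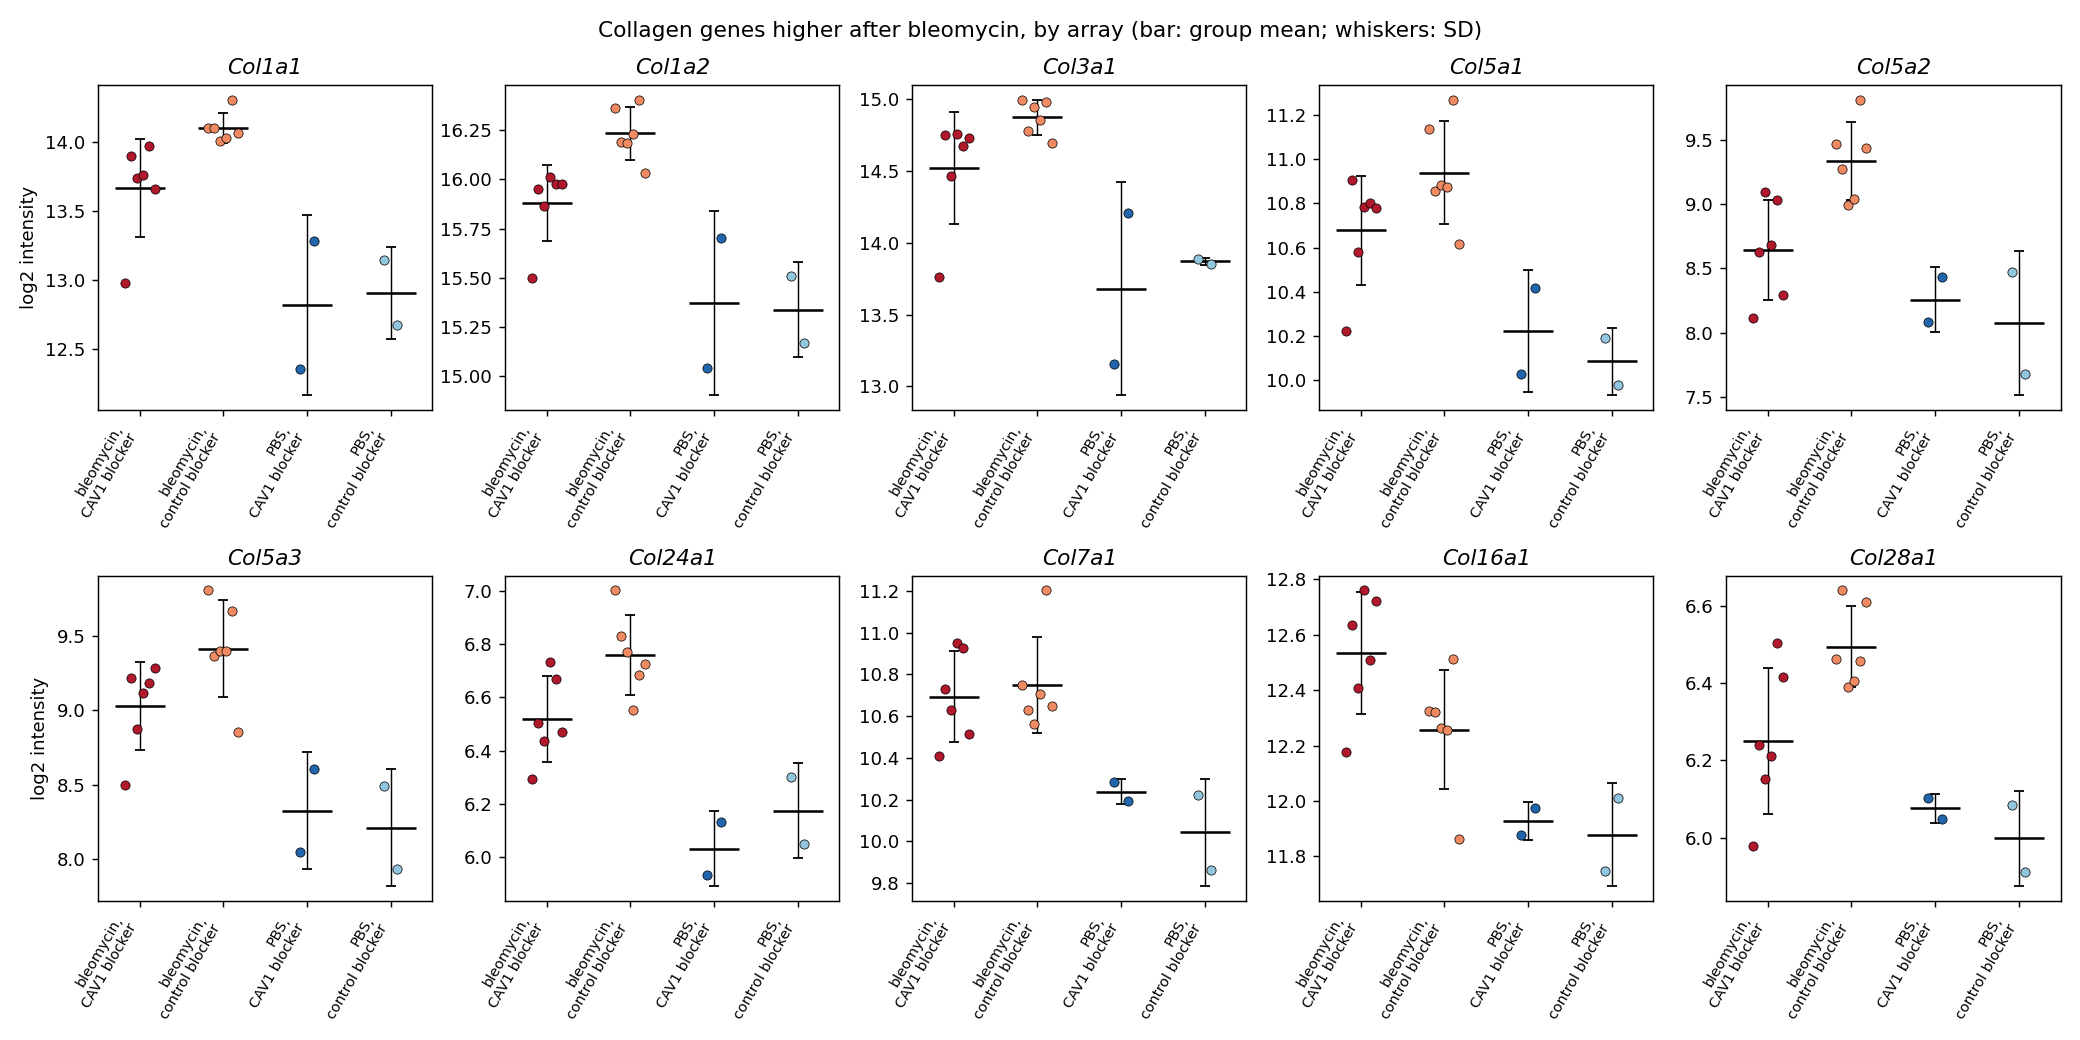
Log2 intensity (y axis) of the 10 called collagen genes in every array, with groups from left to right bleomycin CAV1 blocker, bleomycin control blocker, PBS CAV1 blocker and PBS control blocker. Points are arrays, bars group means and whiskers the SD. Bleomycin control blocker arrays lie above the PBS control blocker arrays in 9 panels, and in Col16a1 the groups overlap.

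The type V chains, which initiate fibrils and set their diameter, rose with the type I and III chains. Col5a1 had 10.22, 10.78 and 10.90 (lowest, median, highest) in bleomycin CAV1 blocker arrays and 10.62, 10.88 and 11.27 in bleomycin control blocker arrays, against 10.03 and 10.42 in PBS CAV1 blocker arrays and 10.19 and 9.98 in PBS control blocker arrays. It was 1.58-fold higher after bleomycin (log2 0.66, SE 0.128, adjusted p = 0.0075). Col5a3 had 8.50, 9.15 and 9.29 in bleomycin CAV1 blocker arrays and 8.85, 9.40 and 9.81 in bleomycin control blocker arrays, against 8.05 and 8.61 in PBS CAV1 blocker arrays and 8.49 and 7.93 in PBS control blocker arrays. Its difference was 1.94-fold (log2 0.95, SE 0.173, adjusted p = 0.00486). For both, the lowest CAV1 blocker array after bleomycin lay within the PBS range and the other 11 bleomycin arrays lay above it.

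Col5a2 encodes the other chain of the common type V trimer. It had 8.11, 8.65 and 9.09 in bleomycin CAV1 blocker arrays and 8.99, 9.35 and 9.81 in bleomycin control blocker arrays. PBS CAV1 blocker arrays had 8.08 and 8.44, and PBS control blocker arrays 8.47 and 7.68. The control blocker arrays after bleomycin were clear of all 4 PBS arrays, whereas some of the CAV1 blocker arrays were not. Its log2 difference was 0.82 (SE 0.192, interval 0.41 to 1.23, adjusted p = 0.0194), 1.77-fold. Without array 2 of PBS with the control blocker, the array with the 7.68, it was 0.62 (adjusted p = 0.0956).

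Col24a1, a minor fibrillar chain known from bone, stayed near the array median. It had 6.29, 6.49 and 6.73 in bleomycin CAV1 blocker arrays and 6.55, 6.75 and 7.00 in bleomycin control blocker arrays, against 5.93 and 6.13 in PBS CAV1 blocker arrays and 6.30 and 6.05 in PBS control blocker arrays. The difference was 1.45-fold (log2 0.54, SE 0.0900, adjusted p = 0.00345). Within each blocker all bleomycin arrays were above both PBS arrays. The other 4 fibrillar chains were not called. Col2a1 had a log2 difference of 0.18, Col27a1 of 0.13, Col11a1 of 0.05 and Col11a2 of -0.10.

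Outside the fibrillar group 3 genes rose. Col7a1, which forms the fibrils that anchor basement membranes to the tissue below, had 10.41, 10.68 and 10.95 in bleomycin CAV1 blocker arrays and 10.56, 10.68 and 11.20 in bleomycin control blocker arrays. Its PBS values were 10.28 and 10.20 with the CAV1 blocker and 10.22 and 9.86 with the control blocker. It was the only member with all 12 bleomycin arrays above all 4 PBS arrays, a pattern shown by 1.04% of all genes. The difference was 1.50-fold (log2 0.58, SE 0.120, adjusted p = 0.00998).

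Col16a1, a chain of the fibril-associated group, had 12.18, 12.57 and 12.76 in bleomycin CAV1 blocker arrays and 11.86, 12.29 and 12.51 in bleomycin control blocker arrays, against 11.88 and 11.98 in PBS CAV1 blocker arrays and 11.75 and 12.01 in PBS control blocker arrays. Here the CAV1 blocker arrays had the higher mean of the bleomycin groups, and of these groups only the control blocker arrays overlapped with PBS. The difference was 1.41-fold (log2 0.49, SE 0.114, adjusted p = 0.0179). Its 3 other spots gave log2 differences of -0.09 to 0.48 and correlations of -0.55 to 0.47 with the spot used, so the value is that of a single spot. Col28a1, a chain known from basement membranes of peripheral nerve, had 5.98, 6.23 and 6.50 in bleomycin CAV1 blocker arrays and 6.39, 6.46 and 6.64 in bleomycin control blocker arrays, against 6.10 and 6.05 in PBS CAV1 blocker arrays and 6.08 and 5.91 in PBS control blocker arrays. Its signals lay near or below the array median, 1 CAV1 blocker array fell below both PBS arrays of that blocker, and the difference was 1.26-fold (log2 0.33, SE 0.0844, adjusted p = 0.0292).

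**Figure D2:**
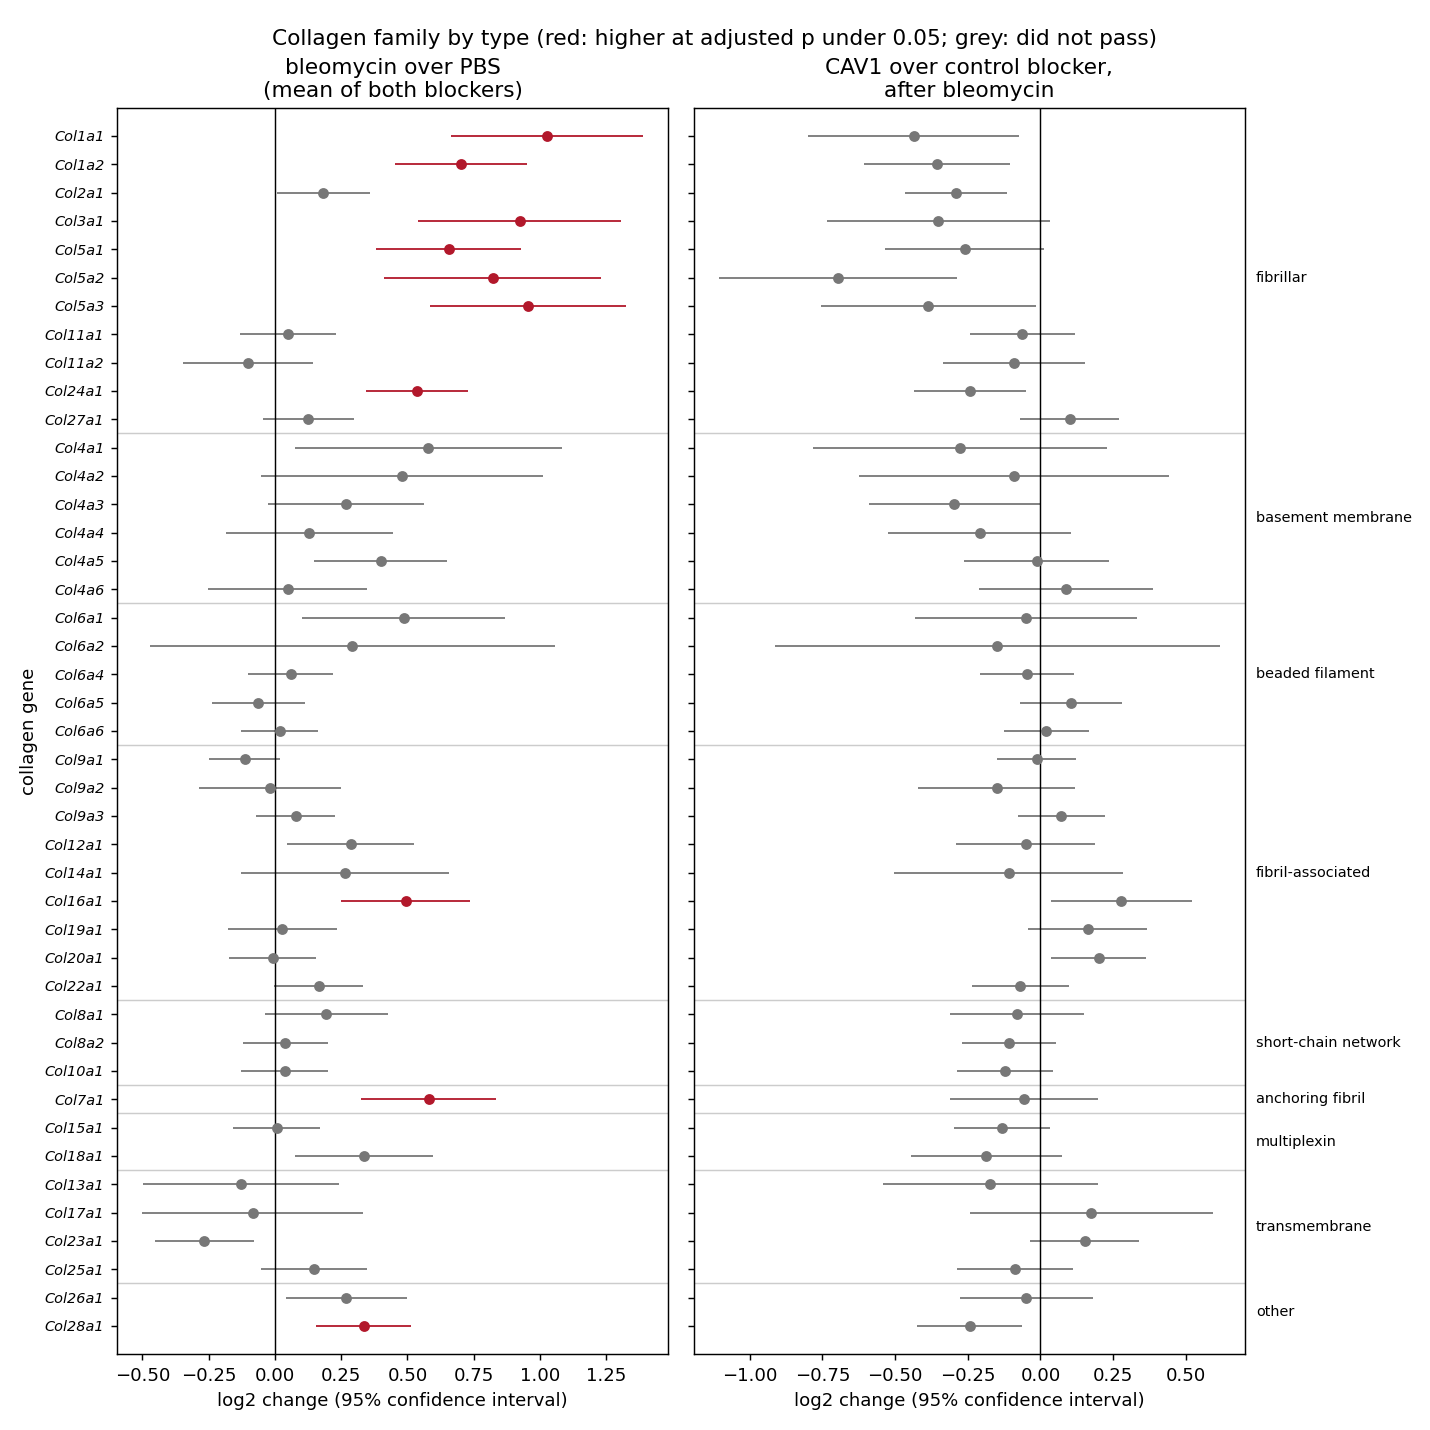
Log2 change of all 43 collagen genes with 95% confidence intervals, grouped by type. The left panel shows bleomycin over PBS as the mean of both blockers and the right panel the CAV1 blocker over the control blocker after bleomycin. Red marks genes called higher and grey genes not called, and the called genes are 10 on the left, 7 of them fibrillar, and 0 on the right.

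None of the 6 basement membrane chains passed the test, although all 6 differences were positive (median 0.33). Col4a1 and Col4a2, the chains found in nearly all basement membranes, had log2 differences of 0.58 (SE 0.237, adjusted p = 0.202) and 0.48 (adjusted p = 0.354). Col4a1 had 12.92, 13.76 and 14.57 in bleomycin CAV1 blocker arrays and 13.71, 14.06 and 14.36 in bleomycin control blocker arrays, against 12.78 and 13.37 in PBS CAV1 blocker arrays and 13.09 and 14.04 in PBS control blocker arrays. The arrays highest for endothelial and lung epithelium markers held the highest value of Col4a1 in each of their groups. The part of this tissue content in the result was not tested. The 9 other Col4a1 spots gave 0.56 to 0.65. Col4a5, a chain of the type IV network best known from kidney, came nearest to the threshold (0.40, adjusted p = 0.0605). Col4a3 had 0.27, Col4a4 0.13 and Col4a6 0.05.

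The beaded filament chains were not called either. Col6a1 had 13.71, 14.34 and 14.69 in bleomycin CAV1 blocker arrays and 13.89, 14.41 and 14.60 in bleomycin control blocker arrays, against 13.48 and 13.99 in PBS CAV1 blocker arrays and 13.56 and 14.27 in PBS control blocker arrays. Most bleomycin arrays exceeded the PBS arrays other than the 14.27 of array 2. Its log2 difference was 0.49 (SE 0.179, adjusted p = 0.145), and that of Col6a2 0.29, with a wide SE of 0.359. Col6a2 read 10.92 and 11.55 in PBS CAV1 blocker arrays and 11.06 and 13.33 in PBS control blocker arrays, so the 13.33 of array 2 exceeded every bleomycin array.

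No other chain of the beaded, fibril-associated, multiplexin or short-chain types passed. Col6a4, Col6a5 and Col6a6, at or below the array median in all arrays, lay between -0.06 and 0.06. Among fibril-associated chains other than Col16a1, differences ran from -0.11 for Col9a1 to 0.29 for Col12a1 (adjusted p = 0.177), with Col14a1 at 0.26. Of the multiplexins, Col18a1, whose fragment endostatin limits vessel growth, had 10.69, 10.94 and 11.22 in bleomycin CAV1 blocker arrays and 10.93, 11.12 and 11.50 in bleomycin control blocker arrays, against 10.69 and 11.01 in PBS CAV1 blocker arrays and 10.84 and 10.32 in PBS control blocker arrays. Its difference was 0.34 (adjusted p = 0.136), and that of Col15a1 was 0.01. The short-chain network chains had 0.19 (Col8a1), 0.04 (Col8a2) and 0.04 (Col10a1). Col8a2 hardly varied, with medians of 8.88 in bleomycin CAV1 blocker arrays and 8.98 in bleomycin control blocker arrays, against 8.95 and 8.88 in PBS CAV1 blocker arrays and 8.90 and 8.87 in PBS control blocker arrays. Col26a1 had a difference of 0.27 (adjusted p = 0.185), with medians of 7.11 and 7.16 in the same bleomycin groups, against 7.04 and 6.98 in PBS CAV1 blocker arrays and 6.88 and 6.64 in PBS control blocker arrays.

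Of the 4 transmembrane collagens, 3 had negative differences and 1 a positive one (median -0.11), and none was called. Their median was -0.26 under the control blocker and 0.03 under the CAV1 blocker. Col23a1, which is shed from the cell surface, had the lowest difference of the family, -0.27 (SE 0.0873, adjusted p = 0.0957). It had 10.12, 10.18 and 10.30 in bleomycin CAV1 blocker arrays and 9.82, 10.11 and 10.16 in bleomycin control blocker arrays, against 10.40 and 10.41 in PBS CAV1 blocker arrays and 10.08 and 10.65 in PBS control blocker arrays. Groups overlapped only through the 10.08 of the PBS control blocker. Its 2 other spots gave -0.42 and -0.41. Col13a1 had -0.13, Col17a1, a hemidesmosome component, -0.08, and Col25a1 0.15.

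Within the control blocker, 8 of 43 members rose after bleomycin and none fell. That is 18.6% of the family called higher, where 1.96% of all genes were called higher, 0.448% lower and 2.41% in either direction. They were Col1a1 (log2 1.20, SE 0.241, adjusted p = 0.0226), Col1a2 (0.90), Col5a1 (0.86), Col5a2 (1.26), Col5a3 (1.20), Col24a1 (0.59), Col7a1 (0.71) and Col28a1 (0.50), with the other 7 adjusted p-values between 0.0187 and 0.0432. The median was 0.86 over fibrillar chains and 0.21 over the family, against 0.03 over all genes. At an unadjusted p under 0.05, 15 were higher (10.5% of all genes) and 1 lower (5.41%). All bleomycin arrays were above both PBS arrays for 12 members, among them the 8, and for 8.55% of all genes. Only 2 PBS arrays stand on the other side of this comparison, and both were rich in muscle and squamous markers, which were low in bleomycin control blocker arrays 2 and 6. The part of that tissue in the result was not tested. With the skeletal muscle covariate 4 members were called (Col1a1, Col1a2, Col5a1 and Col5a3). The other 4 had log2 differences near those above, 1.17 for Col5a2, 0.60 for Col24a1, 0.77 for Col7a1 and 0.46 for Col28a1. Without the 5 arrays low in muscle and squamous markers none was called, with Col1a1 at 1.21 and Col1a2 at 0.96. Likewise, without array 2 of PBS with the control blocker none was called, with log2 differences of the 8 then between 0.41 and 0.96. Without PBS control blocker array 1 the count was 17, and without bleomycin control blocker array 1 or 2 it was 2 or 5.

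Within the CAV1 blocker no member was called after bleomycin, where 0.517% of all genes were called. Their log2 differences were nonetheless positive in 36 of 43 members, with a median of 0.46 over fibrillar chains and 0.13 over the family, against -0.01 over all genes. At an unadjusted p under 0.05, 10 members were higher (23.3%, against 7.15% of all genes) and none was lower (7.67%). The smallest p-values belonged to Col24a1 (0.49, adjusted p = 0.0920), Col16a1 (0.61, adjusted p = 0.0963) and Col1a1 (0.85, adjusted p = 0.112). All bleomycin arrays lay above both PBS arrays for 3 members, Col24a1, Col16a1 and Col7a1, as for 8.38% of all genes. They lay below both for 2 members, Col23a1 and Col9a1, and the share of all genes on that side is not given here. On the lower side stood Col23a1 (-0.21), Col9a1 (-0.15) and Col4a6 (-0.23), none called. The other Col4a6 spot gave 0.07. Without array 1 of bleomycin with the CAV1 blocker, 5 members were called, including Col1a1 at 0.99 (adjusted p = 0.0113), and array weights gave 10. Without array 1 of PBS with the CAV1 blocker, Col1a1 was 0.39 (adjusted p = 0.922) and Col24a1 0.39 (adjusted p = 0.786), and no member was called.

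The CAV1 blocker was compared with the control blocker after bleomycin to ask whether it alters collagen transcripts in the injured lung. None of the 43 members passed the test, where 1.61% of all genes did. The direction was negative for 33 of 43, with a median of -0.29 over fibrillar chains and -0.09 over the family, against -0.01 over all genes. At an unadjusted p under 0.05, 8 members were lower, 18.6% of the family against 4.6% of all genes, and 2 were higher, where 4.48% of all genes were. The 8 were the fibrillar Col1a1, Col1a2, Col2a1, Col5a2, Col5a3 and Col24a1, with Col4a3 and Col28a1. This comparison and the one within the control blocker share the bleomycin control blocker arrays. Between the same groups the skeletal muscle markers had a median log2 difference of 0.56, and the squamous and adipocyte markers of 0.48 each, with no marker called, and their part in the result was not tested.

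Col5a2 had the smallest p, with the arrays given above. Of the CAV1 blocker arrays, 4 of 6 lay below every control blocker array, and arrays 3 and 5 (9.09 and 9.03) reached the lower end of the control blocker range. Its log2 difference was -0.70 (SE 0.192, interval -1.11 to -0.29, adjusted p = 0.112). With the cartilage marker list as a covariate it was -0.77 and passed (adjusted p = 0.0445). Col1a1 and Col1a2 were lower in all 6 CAV1 blocker arrays than in any control blocker array after bleomycin, a pattern shown by 3 members and 0.832% of all genes. Col1a1 differed by -0.44 (SE 0.170, interval -0.80 to -0.07, adjusted p = 0.387), and Col1a2 by -0.35 (SE 0.117, adjusted p = 0.236). Without array 1 of the CAV1 blocker, Col1a2 differed by -0.28 (adjusted p = 0.459).

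The third of these was Col2a1, the cartilage fibril chain. It had 6.20, 6.33 and 6.44 with the CAV1 blocker and 6.47, 6.57 and 6.88 with the control blocker after bleomycin, all close to the array median (6.51 to 6.52). Its log2 difference was -0.29 (SE 0.0823, adjusted p = 0.123). The mean of 11 cartilage markers was 7.03–7.18 with the CAV1 blocker and 7.07–7.24 with the control blocker. Col3a1 differed by -0.35 (adjusted p = 0.632), Col5a3 by -0.39 (adjusted p = 0.518) and Col24a1 by -0.24 (adjusted p = 0.339). Col28a1 differed by -0.24 (adjusted p = 0.276).

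On the higher side after bleomycin, Col16a1 had a log2 difference of 0.28 (adjusted p = 0.436) and Col20a1, a fibril-associated chain, 0.20 (SE 0.0771, adjusted p = 0.375). Col20a1 had 7.66, 7.85 and 7.95 with the CAV1 blocker and 7.41, 7.66 and 7.75 with the control blocker, and its groups overlapped. Col23a1 followed with 0.15 (adjusted p = 0.723). Basement membrane chains had a median of -0.15, Col4a1 differed by -0.28 and Col7a1 by -0.06. The 95% interval of the Col1a1 difference reached from -0.80 to -0.07, so the miss of the threshold over all genes does not show equal levels. That interval includes the low array 1 of the CAV1 blocker, at 12.98 against 13.66 to 13.97 in the others of its group.

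After PBS the CAV1 blocker and the control blocker had 2 arrays each, and no member was called, where 0.31% of all genes were. The family median was -0.01, against 0.04 over all genes. At an unadjusted p under 0.05, 2 members were higher and 2 lower, as were 8.26% and 4.55% of all genes. Col12a1 (0.53, adjusted p = 0.352), Col4a6 (0.64, adjusted p = 0.367) and Col4a5 (0.41) had the smallest p on the higher side. The other Col4a6 spot gave -0.12 and correlated at -0.75 with the spot used, so the Col4a6 value is that of a single spot. Col11a2 (-0.56, adjusted p = 0.348), Col10a1 (-0.38) and Col22a1 (-0.24) had it on the lower side. Col6a2 had the largest difference in size, -0.96 (SE 0.621, adjusted p = 0.461), through the 13.33 of PBS control blocker array 2. Non-overlap says little here, since it held for 6 members on the higher and 5 on the lower side, as for 23.7% and 14.7% of all genes. Without array 1 of PBS with the control blocker 7 members were called, among them Col12a1, Col4a6 and Col11a2. Without array 2 of that group none was called, and these 3 genes had 0.29, 0.26 and -0.11.

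**Figure D3:**
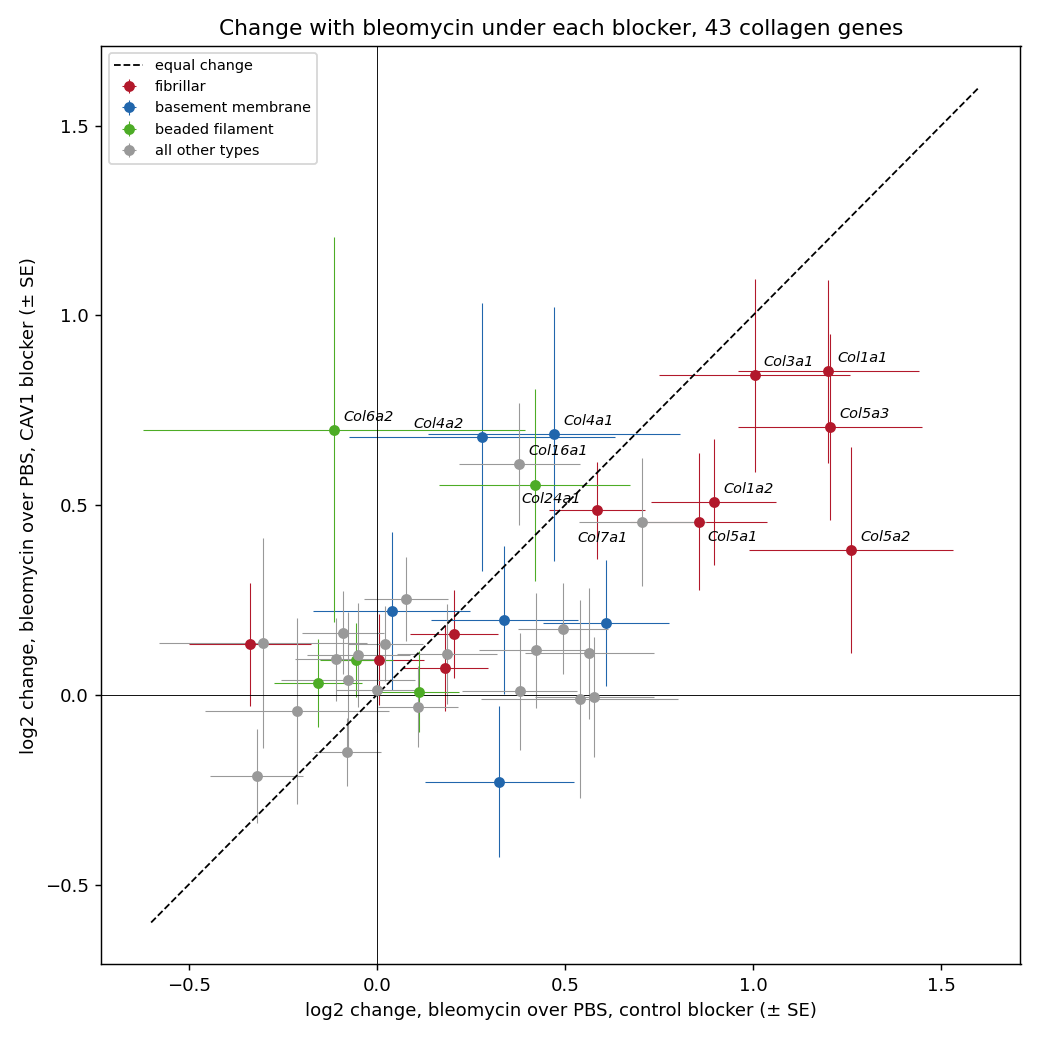
Log2 change after bleomycin under the control blocker (x axis) and under the CAV1 blocker (y axis) for the 43 collagen genes, with the SE of each as bars and colours by type. The dashed line marks equal change, and Col5a2 (1.26 and 0.38) lies below it.

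The interaction, the change after bleomycin under the CAV1 blocker minus that under the control blocker, called no member and 0 of 20304 genes (0%). At an unadjusted p under 0.05 it was negative for 2 members and for 6.01% of all genes. These were Col5a2 at -0.88 (SE 0.384, interval -1.70 to -0.06, unadjusted p = 0.0372, adjusted p = 0.497) and Col12a1 at -0.58 (adjusted p = 0.497). Interaction values were negative for 9 of 11 fibrillar chains (median -0.16, against -0.05 over all genes), with Col1a1 at -0.35 (SE 0.340). Both Col5a2 and Col12a1 were low in PBS control blocker array 2, and without it the Col5a2 value was -0.48. The interaction of the 12 skeletal muscle markers had a median of 4.28 and that of the 14 squamous markers of 3.32, none called, and their part in the collagen values was not tested. Without PBS control blocker array 1 the value was -0.83 for Col12a1, -0.94 for Col4a6 and 0.91 for Col11a2. In the fit of all arrays Col4a6 had -0.56, and its other spot gave 0.09.

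Chains that share a trimer or a fibril were compared across the 12 bleomycin arrays after removing group means, 9 pairs in all, with permutation within groups. Of these, 6 had an adjusted p under 0.05 for Pearson's r. How many other gene pairs would pass on these arrays was not computed, so the count shows nothing particular to partner chains. Col6a1 and Col6a2 went together (r = 0.916, rho = 0.930, permutation p = 4e-05, adjusted p = 0.00027), as did Col4a1 and Col4a2 (r = 0.934, rho = 0.853, permutation p = 6e-05, adjusted p = 0.00027). Without the 2 arrays farthest from the median r was 0.890 and 0.855. Col4a3 and Col4a4 had r = 0.899 and rho = 0.832 (permutation p = 0.00037, adjusted p = 0.00111), and 0.825 without the 2 farthest arrays. The starts of Col4a1 and Col4a2 lie 21 bases apart on opposite strands of chromosome 8 in GRCm38.p6, and their RefSeq promoter windows (250 bases ahead of the start and 50 after) overlap by 78 bases. Endothelial and lung epithelium marker levels varied across the same arrays, and their part in these correlations was not tested.

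Col1a1 and Col1a2, whose chains form the type I trimer, had r = 0.837 and rho = 0.684 (permutation p = 0.0127, adjusted p = 0.019). Within the CAV1 blocker arrays r was 0.926, and within the control blocker arrays 0.666. Without CAV1 blocker arrays 1 and 5, r was 0.568 (adjusted permutation p = 0.141), so the call was not kept over the 10 other arrays. Col1a1 and Col3a1 had r = 0.875 and rho = 0.627 (permutation p = 0.0422, adjusted p = 0.0543). Col4a5 and Col4a6 had r = 0.766 and rho = 0.706 (permutation p = 0.00646, adjusted p = 0.0116), and 0.429 when each gene's spots were averaged. Col8a1 and Col8a2, the type VIII chains of vessel walls, ran opposite (r = -0.772, rho = -0.701, permutation p = 0.00266, adjusted p = 0.00598), at -0.816 within the CAV1 blocker and -0.804 within the control blocker. With each gene's spots averaged r was -0.573 (adjusted permutation p = 0.0958), and the signals of Col8a1 lay near the array median. Col5a1 with Col5a2 (r = 0.486, rho = 0.427, adjusted permutation p = 0.149) and Col9a1 with Col9a2 (r = 0.226, rho = 0.105, adjusted permutation p = 0.499) did not pass.

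**Figure D4:**
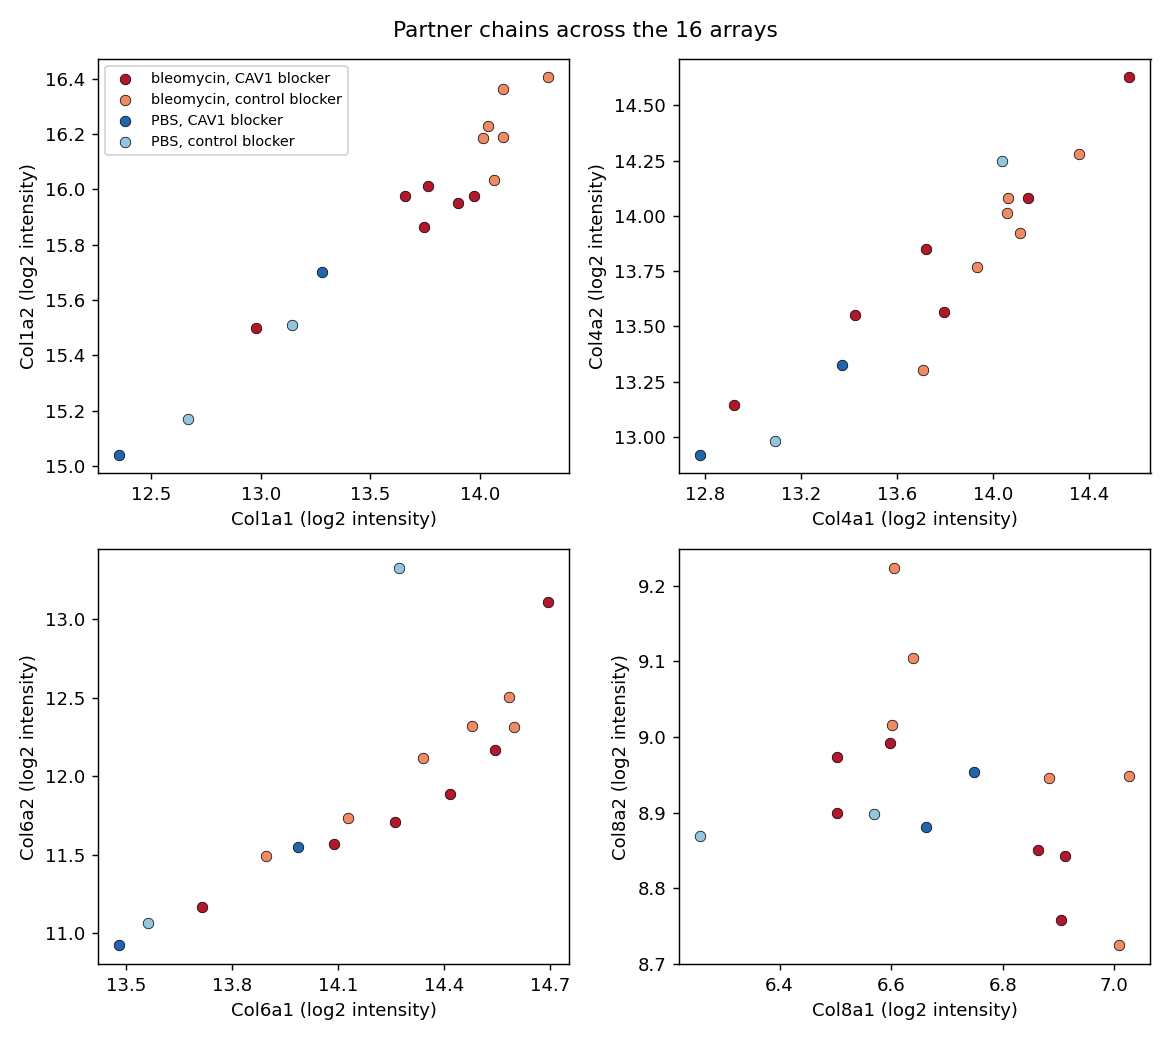
Log2 intensity of 4 pairs of partner chains across the 16 arrays, 1 point per array, coloured by group. Col1a1 and Col1a2, Col4a1 and Col4a2, and Col6a1 and Col6a2 rise together, whereas Col8a1 and Col8a2 do not.

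Over all 16 arrays, again after removing group means, the mean of Col1a1, Col1a2 and Col3a1 was set against every other gene as a description. The 10 genes outside the family most like it were Cd320 (r = 0.923), Tub (0.906), Serpinh1 (0.895), Adamts9 (0.884), Dnmt3l (0.871), Nrcam (0.870), Shisa4 (0.870), Fbn1 (0.859), Ndnf (0.855) and Ctsh (0.851). Serpinh1 encodes the collagen chaperone HSP47 and Fbn1 the microfibril protein fibrillin. Within the family Col5a1 (0.864) and Col5a3 (0.817) came closest, with Col22a1 (0.643), Col24a1 (0.625), Col18a1 (0.614) and Col5a2 (0.590) after them, and Col20a1 was lowest (-0.329). These arrays share their platform and tissue content, and the low array 1 of bleomycin with the CAV1 blocker enters each value. So do the PBS CAV1 blocker arrays, which lay far apart for Col1a1 (12.35 and 13.28) and Col3a1 (13.16 and 14.21).

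Genes that make, trim and cross-link collagen changed in part. Of 32 listed synthesis genes 31 were tested, and 5 rose and 2 fell after bleomycin over both blockers, where 4.25% of all genes were called higher and 1.68% lower. Their median log2 difference was 0.14, against 0.01 over all genes. Bmp1, which removes the carboxy-terminal propeptide, rose by 0.58 (adjusted p = 0.0048), and Lox, which cross-links fibrils, by 0.47 (adjusted p = 0.0044). Adamts2, which removes the amino-terminal propeptide, rose by 0.51, with Loxl4 and Sparc. Pcolce2, an enhancer of Bmp1, fell by 0.54 (adjusted p = 0.0074), and Colgalt2, a collagen galactosyltransferase, fell by 0.43. Serpinh1 had 0.33 (adjusted p = 0.197). After bleomycin 1 of the 31 was lower with the CAV1 blocker than with the control blocker, the prolyl hydroxylase P3h2 (-0.33, SE 0.0704, adjusted p = 0.0209), where 1.61% of all genes were called in either direction.

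Among 19 collagen receptors and turnover genes, 4 rose and 1 fell after bleomycin over both blockers, where 4.25% of all genes were called higher and 1.68% lower. The median was 0.11, against 0.01 over all genes. Timp1, an inhibitor of matrix metalloproteinases, rose by 1.59 (adjusted p = 0.0034), the gelatinase Mmp2 by 1.14, the collagenase Mmp13 by 0.48 and the lysosomal collagenase Ctsk by 0.81. Itga1, the alpha chain of a collagen-binding integrin, fell by 0.36. After bleomycin the CAV1 blocker gave higher Itga1 (0.59, SE 0.0704, adjusted p = 0.0003) and Ddr2 (0.49, SE 0.0663, adjusted p = 0.0010) than the control blocker, and lower Lair1 (-0.60, SE 0.0937, adjusted p = 0.0025). Ddr2 is a receptor kinase for fibrillar collagen and Lair1 an inhibitory receptor of immune cells that binds collagen. Itga1 was also higher with the CAV1 blocker after PBS (0.72, adjusted p = 0.0183). These 3 of 19 genes passed after bleomycin, against 1.61% of all genes, and the other 16 did not.

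Of 16 proteins that associate with fibrils or basement membranes, 4 rose after bleomycin over both blockers, where 4.25% of all genes were called higher. The median was 0.32, against 0.01 over all genes. The 4 were Fn1 (fibronectin, 1.15, adjusted p = 0.0034), Fbn1 (0.68), Tnc (tenascin C, 0.68) and Thbs1 (thrombospondin, 1.03). Eln (elastin) had the highest value of the list, 1.90, and was not called. After bleomycin none of the 16 differed between the blockers at the threshold. Of 9 fibroblast and mesothelium markers, 1 fell and none rose after bleomycin, where 1.68% of all genes were called lower and 4.25% higher. Differences were negative for 6 of the 9, with a median of -0.12, against 0.01 over all genes. Pdgfra was the 1 that fell, by 0.39 (adjusted p = 0.0429). Cthrc1, a marker of collagen-producing fibroblasts in fibrosis, had the highest value of this list, 0.51, without passing.

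Each call over both blockers was repeated without each of the 16 arrays. Col1a1, Col1a2 and Col24a1 passed every time, with adjusted p-values of at most 0.0319, 0.0323 and 0.0346. Col3a1, Col5a1 and Col5a3 passed 15 of 16 times and missed without array 1 of PBS with the CAV1 blocker (adjusted p = 0.0695, 0.0741 and 0.0527). Col5a2 and Col7a1 passed 14 times, and Col16a1 and Col28a1 13 times.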

How the data were processed

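Whole-lung RNA of 16 samples was measured on a single-colour array. The deposited values are log2 intensities, made with limma per the submitters' processing notes, and its version and the background correction are not given in the sources used here. Arrays had nearly equal medians (6.51 to 6.52), and the values were used as deposited. Precision is set by how many arrays there are, not by a read depth. Symbols were given for 31465 of 62976 spots, and 29036 of these were matched by accession to RefSeq symbols (GRCm38.p6), as were 70 of the 74 collagen spots. Genes above the array's 25th percentile in at least 2 arrays were tested (20304).

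A model with 4 group means was fitted in limma 3.58.1 (R 4.3.3), using every array (12 residual degrees of freedom). Two-sided p-values were adjusted by Benjamini-Hochberg over the whole table, with calls made under 0.05. All adjusted p-values of group differences come from that fit. Correlations (Python 3.11.15, scipy 1.17.1, numpy 2.4.6) used 100000 permutations within groups, and figures matplotlib 3.10.9. The fit was also run on simulated data with independent normal noise for each gene. Those data held no differences in tissue content between arrays, so they do not bear on how firm the calls are. Members and gene lists were chosen with earlier results of these data known. Genes named were those called, the highest of each type, the smallest p-values where none was called, up to 4 called genes of a list, and the 10 genes most like the main fibrillar chains. Replicate numbers were not treated as pairs in the main fit. Deviations of same-numbered arrays of the bleomycin groups correlated at -0.69 to 0.35. These exceeded the highest r with another number for numbers 4 (0.15, against 0.08) and 5 (0.35, against 0.19), and not for the others. PBS arrays were not in this check, which cannot settle whether the numbers pair samples. Alternatives covered the dim filter (none, 50th percentile), mean of spots, spots in place of genes, platform symbols, renewed normalization, centring, moderation, array weights, fitted arrays, blocks, marker covariates and arrays left out.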

Additional observations from a re-analysis of the deposited data

Results flagged for a closer look

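Dixon's rule was applied to 25 members in each bleomycin group of 6 arrays, 50 groups of values in all, and marked 6 single arrays. Chance marks about 1 in 20 groups. In array 1 of bleomycin with the CAV1 blocker, Col1a1 read 12.98 (the other 5 arrays 13.66 to 13.97), Col1a2 read 15.50 (15.86 to 16.01) and Col3a1 read 13.76 (14.46 to 14.76), each far below the rest. In array 5 of bleomycin with the control blocker, Col1a1 read 14.31 (14.01 to 14.10) and Col7a1 11.20 (10.56 to 10.75), both far above, and Col20a1 read 7.41 (7.64 to 7.75), far below. That sample was 1 of 2 with an RNA integrity number of 10, where the others had 9.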

How the results depend on the processing

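The counts of collagen genes called were 8 (bleomycin over PBS, control blocker), 0 (CAV1 blocker), 10 (both blockers) and 0 for the blocker comparisons and the interaction. Array weights gave 0, 10 and 5 for the first 3. Under the control blocker, 3 were called in a fit to the compared arrays, 4 with the skeletal muscle covariate, 5 with the cartilage covariate, 0 without the 5 arrays low in muscle and squamous transcripts (Col1a1 at 1.21, against 1.20), and 0 without the 2 arrays highest in endothelial markers, an alternative chosen after seeing the data. The cartilage covariate gave 1 lower gene after bleomycin, Col5a2. With the replicate number as a block, 0 were called under the control blocker and 0 over both. Leaving out each array gave 0 to 17, 0 to 5 and 3 to 16 for bleomycin under the control blocker, the CAV1 blocker and both, 0 to 0 after bleomycin, 0 to 7 after PBS and 0 to 4 for the interaction. The highest counts came without PBS control blocker array 1 (17, 16, 7 and 4) and without bleomycin CAV1 blocker array 1 (5). The lowest were 3 over both blockers without PBS CAV1 blocker array 1, and under the control blocker 0 without PBS control blocker array 2 and 2 without bleomycin control blocker array 1. Of 1376 alternatives for named genes, 109 ended a call and 13 made a call that the main fit did not. The 1376 cover 18 called and 26 uncalled results, and only the called ones could lose a call. Array weights ended 13 of 18 calls, and the replicate block ended all 18. Direction changed in 1 alternative: the Col11a2 interaction was -0.0104 without the 2 arrays highest in endothelial and lung epithelium markers, against 0.47. Among 9 chain pairs, 3 calls were lost, Col1a1 with Col1a2 without the 2 farthest arrays (r = 0.568), and Col4a5 with Col4a6 (0.429) and Col8a1 with Col8a2 (-0.573) with spots averaged. The causes were not tested. PBS groups of 2 limit every comparison with PBS.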
